A study of Mus musculus with 32 samples.

Results

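The data are the 8 unstressed samples of a pair of mouse embryonic fibroblast (MEF) lines, one labelled ATM knock-out and one labelled wild type, out of 32 samples in the series. They were chosen by their labels alone: every DMSO-treated sample of the ATM knock-out line (2 at 4 h and 2 at 24 h) was set against every DMSO-treated sample of the wild-type line paired with it, called wtATM (again 2 at 4 h and 2 at 24 h). Each sample is a bulk RNA sequencing library, and the measured value is the number of reads per gene. The rest of the series holds aphidicolin-treated samples of both lines, and a further pair of lines, ATMIN knock-out and wtATMIN. All 8 cultures were grown in complete DMEM and received the solvent DMSO without aphidicolin. The labels do not give the allele, the strain, the passage, the embryonic stage or whether the lines are clones. Each genotype is represented by a single line, so an effect of losing ATM and any other difference between these lines cannot be told apart. Nor do the labels say that replicates are separate cultures, and p-values therefore measure only the spread between these samples, which may be technical.

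ATM is a large protein kinase that is activated by double-strand breaks in DNA. It phosphorylates the kinase CHK2, the p53 protein, the p53 ubiquitin ligase MDM2 and the histone variant H2AX, and so links DNA damage to the arrest of the cell cycle, to repair and to apoptosis. Fibroblasts from Atm-deficient mice are known for slow growth and early senescence in culture, and established MEF lines often lose the Cdkn2a locus or p53 function.

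Total counts ran from 13678896 to 18135786 reads in genes, and values are given as CPM, the count scaled to the TMM-adjusted size of its library. Where values are listed, they stand in the order 4 h replicate 1, 4 h replicate 2, 24 h replicate 1 and 24 h replicate 2. A log2 fold change is ATM knock-out over wtATM with time as an additive factor. The value after ± is a derived standard error, the absolute log2 fold change divided by the square root of edgeR's quasi-likelihood F. A gene is called at a Benjamini-Hochberg adjusted p under 0.05 over all 16657 genes tested. Replicates of a group correlated at 0.9953 to 0.9976 and samples of different lines at 0.8814 to 0.9123. The first principal component, with 74.1% of the variance, separated the lines, and the second, with 21%, separated 4 h from 24 h. Gm42418, a ribosomal RNA sequence, stood at 14896 and 14542 CPM in ATM knock-out at 4 h and 39952 and 16260 CPM in wtATM at 4 h, against 242 to 2276 CPM in the 4 libraries at 24 h. Its part in the results was not tested.

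The identity of the cells was checked on fibroblast genes. Reads were found for all 20 listed fibroblast genes in ATM knock-out and for 19 in wtATM, where Fap had none. Vim, which encodes the mesenchymal filament vimentin, was at 4457, 4773, 4201 and 4153 CPM in ATM knock-out and 3791, 3790, 2975 and 3051 CPM in wtATM. Col1a2, a chain of type I collagen, was at 4699, 4743, 3506 and 3328 CPM in ATM knock-out and 8992, 9196, 7969 and 7842 CPM in wtATM. Both lines thus carried high levels of general fibroblast transcripts, but wtATM had almost no Thy1 (below). Of the 18 listed epithelial and keratin markers, the adhesion genes Epcam and Cdh1 were near 0 in both lines: over the 4 libraries of a line, Epcam had 2 reads in ATM knock-out and 0 in wtATM, and Cdh1 had 2 and 3 reads. Keratins were not, since Krt14 had 11 reads in ATM knock-out against 10202 in wtATM, and the whole list summed to 4.75 to 7.16 CPM in ATM knock-out against 99.2 to 239 CPM in wtATM. The lines differed in markers of other kinds, which are given with the gene groups they concern.

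The targeted gene itself was lower but still read in the knock-out line. Atm (ENSMUSG00000034218, mm10 chromosome 9, 53439149 to 53536740, minus strand) had 24.4, 17.1, 31.7 and 31.8 CPM in ATM knock-out, against 48.4, 50.4, 61.8 and 62.5 CPM in wtATM. The lines did not overlap, and the log2 fold change was −1.10 ± 0.10, adjusted p = 5.05e-07 (edgeR). The authors' deposited table gives −1.23 at 4 h and −0.96 at 24 h. The labels do not state which part of the gene was removed, and reads summed over all exons cannot check it. Npat, a coactivator of histone gene transcription, is transcribed in the opposite direction from the same region, and its counts were 28, 23.9, 47.3 and 51.5 CPM in ATM knock-out and 23.9, 23.1, 41.5 and 43.3 CPM in wtATM. Npat values overlapped between the lines, and its call (0.18 ± 0.07, adjusted p = 0.0362) was lost at 4 h alone (adjusted p = 0.213) and without any one of 5 libraries (adjusted p up to 0.114). The starts of Atm and Npat lie so close that their promoter windows of 300 bases (250 before to 50 after the start, RefSeq, GRCm38.p6) share 125 bases, and both are shown because Atm was lower in the knock-out line and Npat was not. The Atm window is chr9:53536622-53536921 on the minus strand and the Npat window is chr9:53536797-53537096 on the plus strand. Capitals mark the letters GGGCGG (the core of the Sp1 motif) and CCAAT on either strand.
Atm: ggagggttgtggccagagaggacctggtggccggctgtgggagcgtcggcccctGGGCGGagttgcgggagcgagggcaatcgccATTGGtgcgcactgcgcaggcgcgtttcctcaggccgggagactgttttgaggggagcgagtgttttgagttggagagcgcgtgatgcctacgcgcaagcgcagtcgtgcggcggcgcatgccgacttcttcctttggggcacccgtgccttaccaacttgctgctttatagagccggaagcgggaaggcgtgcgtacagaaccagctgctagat
Npat: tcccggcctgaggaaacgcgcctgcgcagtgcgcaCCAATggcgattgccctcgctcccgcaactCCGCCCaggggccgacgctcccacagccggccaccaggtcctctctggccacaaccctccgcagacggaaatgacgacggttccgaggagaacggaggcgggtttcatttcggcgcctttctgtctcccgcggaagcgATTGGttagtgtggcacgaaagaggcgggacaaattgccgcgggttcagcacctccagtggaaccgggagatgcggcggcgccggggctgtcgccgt
The single GGGCGG of both windows is the same run of bases read from opposite strands, and so is the CCAAT of the Atm window and the first CCAAT of the Npat window. Over the 10095 tested genes matched by symbol to a promoter, 63.4% held GGGCGG and 39.3% held CCAAT, so both motifs are common.

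Of the 30 listed genes of ATM and double-strand break signalling, 12 were higher in ATM knock-out cells and 6 were lower. Read against all tested genes, of which 66.6% were called (32.8% higher and 33.9% lower), 60.0% of this list is near the background, and its median log2 fold change was 0.121 against −0.00169 over all genes. Chek2, which encodes the kinase CHK2 downstream of ATM, had 9.22, 9.85, 14.1 and 13.9 CPM in ATM knock-out, against 25.1, 22.9, 26.7 and 27.6 CPM in wtATM. No Chek2 value overlapped between the lines (−1.13 ± 0.09, adjusted p = 1.61e-07). H2afx, which encodes H2AX, was at 53, 59.2, 30.2 and 28.5 CPM in ATM knock-out and 81.9, 85.7, 53.2 and 64 CPM in wtATM (−0.78 ± 0.09, adjusted p = 9.63e-06), with lower values in the knock-out within each time. The sensor complex that recruits ATM moved in both directions, with Rad50 at 0.66 ± 0.08 and Mre11a at 0.42 ± 0.06, but Nbn at −0.27 ± 0.07. Topbp1, an activator of the sister kinase ATR, had 278, 248, 371 and 388 CPM in ATM knock-out, against 168, 171, 249 and 237 CPM in wtATM (0.64 ± 0.05, adjusted p = 1.22e-07). Usp28, a deubiquitinase of the damage response, was higher at 0.81 ± 0.08, adjusted p = 4.64e-07. Prkdc, the catalytic subunit of DNA-PK, rose by 0.67 ± 0.10. Trp53bp1 was at −0.08 ± 0.05, adjusted p = 0.191 and did not pass. Atmin (0.09 ± 0.10, adjusted p = 0.457), whose protein binds ATM, and Dynll1 (0.04 ± 0.05, adjusted p = 0.524), which ATMIN is known to activate, did not pass either.

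**Figure D1:**
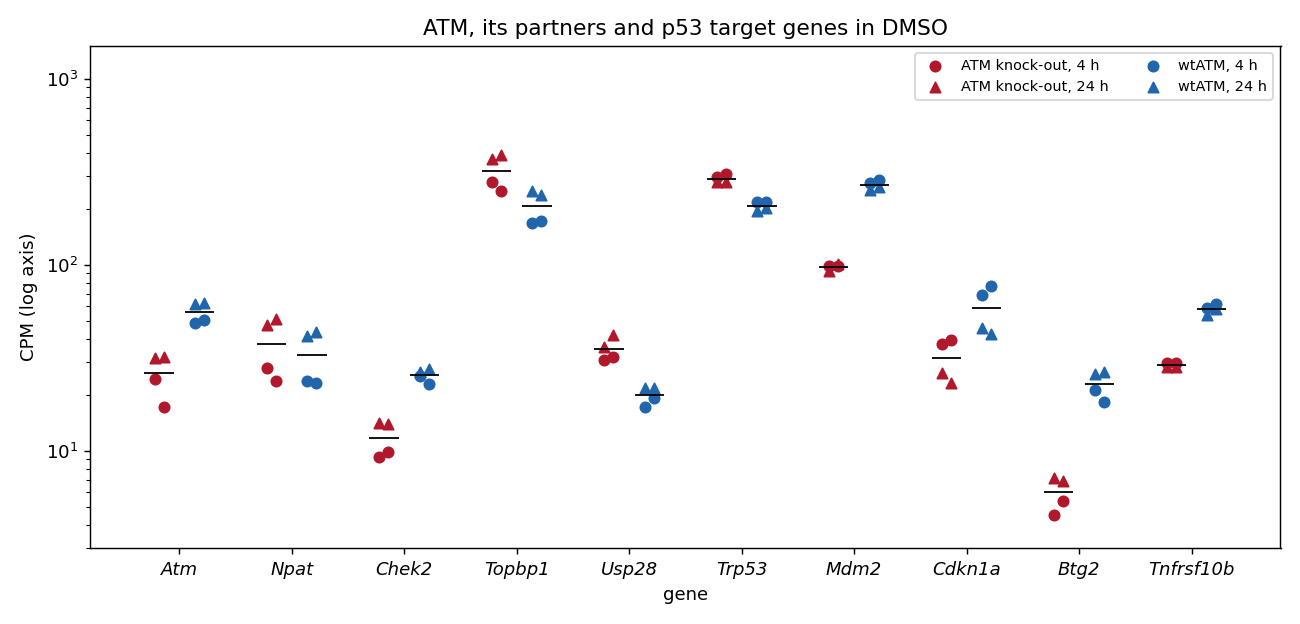
CPM (log axis) of 10 genes in each DMSO sample of the ATM knock-out line (red, left of each gene) and wtATM (blue, right), circles at 4 h and triangles at 24 h, with a black bar at the mean of 4 samples. Atm, Chek2, Mdm2, Cdkn1a, Btg2 and Tnfrsf10b lie lower in ATM knock-out without overlap, Trp53 and Usp28 lie higher, and Npat overlaps.

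Targets of p53 were mostly lower in unstressed ATM knock-out cells. Of 33 tested, 23 were called lower and 2 higher (against 33.9% and 32.8% of all genes), with a median of −0.785, and their summed level was 1296 to 1419 CPM per library in ATM knock-out against 2356 to 2437 CPM in wtATM. Trp53 itself went the other way: it had 296, 307, 277 and 278 CPM in ATM knock-out and 216, 217, 195 and 201 CPM in wtATM (0.48 ± 0.04, adjusted p = 5.02e-07). Mdm2, the ubiquitin ligase that p53 induces against itself, had 99, 98.4, 92.5 and 100.5 CPM in ATM knock-out, against 276, 284, 254 and 263 CPM in wtATM. The 4 values of each line were close together and far from those of the other, a difference of −1.46 ± 0.05, adjusted p = 1.99e-11. Cdkn1a, which encodes the cell cycle inhibitor p21, had 37.7, 39.6, 26.4 and 23.2 CPM in ATM knock-out, against 68.7, 76.7, 45.8 and 42.7 CPM in wtATM (−0.87 ± 0.07, adjusted p = 9.31e-08). All 4 Cdkn1a values in the knock-out lay below all 4 in wtATM, and both lines had less at 24 h. In the other pair Mdm2 was at 42.8 to 60.2 CPM in ATMIN knock-out and 61.4 to 71.6 CPM in wtATMIN. Cdkn1a was at 5.33 to 11.3 CPM in ATMIN knock-out and 5.55 to 16.9 CPM in wtATMIN. For both genes ATM knock-out thus lay above the other pair, and wtATM was the highest of the lines. Among the other targets, the antiproliferative gene Btg2 was at −1.94 ± 0.10, the death receptor gene Tnfrsf10b at −1.01 ± 0.06, the apoptosome gene Apaf1 at −1.29 ± 0.08, the stress sensor Sesn2 at −1.03 ± 0.10, Ccng1 at −0.78 ± 0.07 and the apoptosis effector Bax at −0.44 ± 0.07. Mgmt, a repair enzyme for alkylated guanine, had 4 reads in the knock-out against 635 in wtATM over 4 libraries each. Perp, a target that is also a desmosomal protein of epithelia, had 11.1, 9.4, 1.83 and 1.48 CPM in ATM knock-out, against 183, 192, 277 and 287 CPM in wtATM, the direction of the keratin genes below. The exceptions were Pmaip1, which encodes the apoptosis inducer NOXA, with 3.95, 4.28, 6.07 and 8.4 CPM in ATM knock-out, against 0, 0.0627, 0.0529 and 0.167 CPM in wtATM (6.14 ± 0.33, adjusted p = 2.27e-09), and the cytokine gene Lif (0.89 ± 0.12). Zmat3 was at 0.00 ± 0.05 and did not pass. Of the 33 targets, 4 lie on chromosome 10, where genes as a whole were lower (below). Without them 20 of 29 were lower and 2 higher, with a median of −0.782.

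On a list of INK4 and KIP inhibitors, D cyclins and their kinases, 8 of 13 tested genes were lower and 1 higher (33.9% and 32.8% of all genes). The lower ones include the kinase genes Cdk4 and Cdk6, so this is no count of inhibitors alone. The largest differences belonged to a block of missing reads on chromosome 4. Cdkn2a, which encodes p16 and p19ARF, had 0.359, 0.256, 0.401 and 0.556 CPM in ATM knock-out, against 48.5, 50.4, 23.4 and 22.5 CPM in wtATM. That is 26 reads in the knock-out line against 2277 in wtATM (−6.46 ± 0.20, adjusted p = 1.56e-11). Cdkn2b, which encodes p15, had 1 read in the knock-out and 1965 reads in wtATM, a ratio of wtATM over ATM knock-out of 2062 with an exact 95% counting interval of 370.1 to 81437. From Mllt3 to Cdkn2b (mm10 chromosome 4, 87769925 to 89311039), 11 of the 12 tested genes were called lower by more than 2-fold. These 11 had at most 26 reads each over the 4 ATM knock-out libraries, against 71 to 16482 reads over the 4 wtATM libraries. They include Mllt3, a subunit of the elongation machinery (6 against 3004 reads), Focad (7 against 4470), Klhl9, a ubiquitin ligase adaptor (5 against 5770), and Mtap, the methylthioadenosine phosphorylase of methionine salvage (26 against 16482). Hacd4 had 0 reads in the knock-out line and was at least 240-fold lower, with 3 counts over 4 libraries as the floor. The exception was the processed pseudogene Mrpl48-ps, with 264 against 336 reads, whose reads its parent gene could share. Before the block, Acer2 had 39 against 34 reads and was not called, and Rps6, the next gene outward, was at −0.43. After it, the protein-coding genes Zfp352 and Elavl2 had 2 against 66 and 0 against 269 reads, and both were at most at 0.932 CPM in any sample of the ATMIN pair. The genes listed after the block that were read at like levels in both lines were 3 processed pseudogenes, such as Gm12643 with 920 against 912 reads, and the lincRNA Gm12668 with 37 against 52 reads, so these data do not fix where the block ends. In the other pair Mtap was at 236 to 318 CPM in ATMIN knock-out and 137 to 152 CPM in wtATMIN, and Cdkn2a at 294 to 438 CPM in ATMIN knock-out and 198 to 469 CPM in wtATMIN. DNA was not measured. Other inhibitors and partners, away from this block, were Cdkn2c at −1.02 ± 0.07, Cdk6 at −0.87 ± 0.09 and Cdk4 at −0.35 ± 0.05, and Ccnd1 did not pass (0.02 ± 0.07, adjusted p = 0.856).

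A second block, on chromosome 9, stood out in the wild-type line rather than in the knock-out. Yap1, which encodes the transcriptional coactivator of the Hippo pathway, had 136, 131, 129 and 136 CPM in ATM knock-out, against 3252, 3303, 2708 and 2673 CPM in wtATM. The lines did not overlap, and the log2 fold change was −4.48 ± 0.07, adjusted p = 1.36e-14. The other 2 lines of the series held Yap1 at 139 to 150 CPM (ATMIN knock-out) and 139 to 147 CPM (wtATMIN), so the level of wtATM was the one that differed from the rest. All 7 tested genes from Tmem123 to AK129341 (mm10 chromosome 9, 7764041 to 8134294, a length of 370 kb) were lower in ATM knock-out by similar amounts, from −4.92 to −4.48 on the log2 scale, which is 22.4-fold to 30.3-fold. Tmem123, which encodes a cell surface receptor, had 49.8, 43.4, 63.5 and 65.7 CPM in ATM knock-out, against 1424, 1451, 1770 and 1805 CPM in wtATM (−4.87 ± 0.06). Birc2, which encodes the apoptosis inhibitor cIAP1, had 13.6, 12.7, 20.3 and 23.2 CPM in ATM knock-out, against 373, 381, 510.2 and 501 CPM in wtATM (−4.68 ± 0.08). Birc3, which encodes cIAP2, was at −4.70 ± 0.26, and the remaining members Gm20416, 9230110C19Rik and AK129341 were at −4.51 ± 0.09, −4.92 ± 0.19 and −4.64 ± 0.11. On either side the differences were smaller or mixed. The nearest tested gene before Tmem123, the processed pseudogene Gm10709, was at −0.23, and 1700128F08Rik, a pseudogene after the block, had 17 against 37 reads and was called lower (−1.22). Arhgap42, the first gene after the block with a logCPM of at least 1, was at 0.63 ± 0.10. In ATMIN knock-out over wtATMIN, Yap1 was at 0.03, Tmem123 at −0.03 and Birc2 at 0.13. Among the metalloproteinase genes before Gm10709, Mmp20 had 0 reads in ATM knock-out against 31 in wtATM and was called lower, and it had no read in the ATMIN pair. Mmp3 and Mmp10, further away, were higher in ATM knock-out, with 165 against 6 and 139 against 10 reads. As for chromosome 4, there is no measurement of DNA.

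The list of YAP/TEAD targets, which also holds Yap1 and Tead2 themselves, had no single direction. Of 18 tested, 9 were higher and 7 lower (32.8% and 33.9% of all genes), with a median of 0.112. The lower ones include Yap1, Birc2 and Birc3 of the chromosome 9 block, so the split is not one of targets alone. Ctgf, a secreted matricellular protein and a classical YAP target that lies on chromosome 10, had 164, 157, 179 and 165 CPM in ATM knock-out, against 58.9, 51.7, 100.4 and 102 CPM in wtATM, higher in the line with less Yap1 (1.14 ± 0.16, adjusted p = 0.000588). Ankrd1 was at 1.32 ± 0.08 and the receptor kinase gene Axl at 0.94 ± 0.04, also higher in ATM knock-out. Cyr61 was at 0.33 ± 0.11 and lost its call at 24 h alone (0.03, adjusted p = 0.678) and without any one of the 4 h libraries. Amotl2 was lower (−1.11 ± 0.12). Wwtr1, which encodes the YAP paralog TAZ, was at 0.63. Among the transcription factors that bind YAP, Tead2 was higher with 102, 98.3, 81.6 and 77.8 CPM in ATM knock-out, against 34.2, 35.2, 29.9 and 27.6 CPM in wtATM, and Tead4 was at −1.85 ± 0.11.

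**Figure D2:**
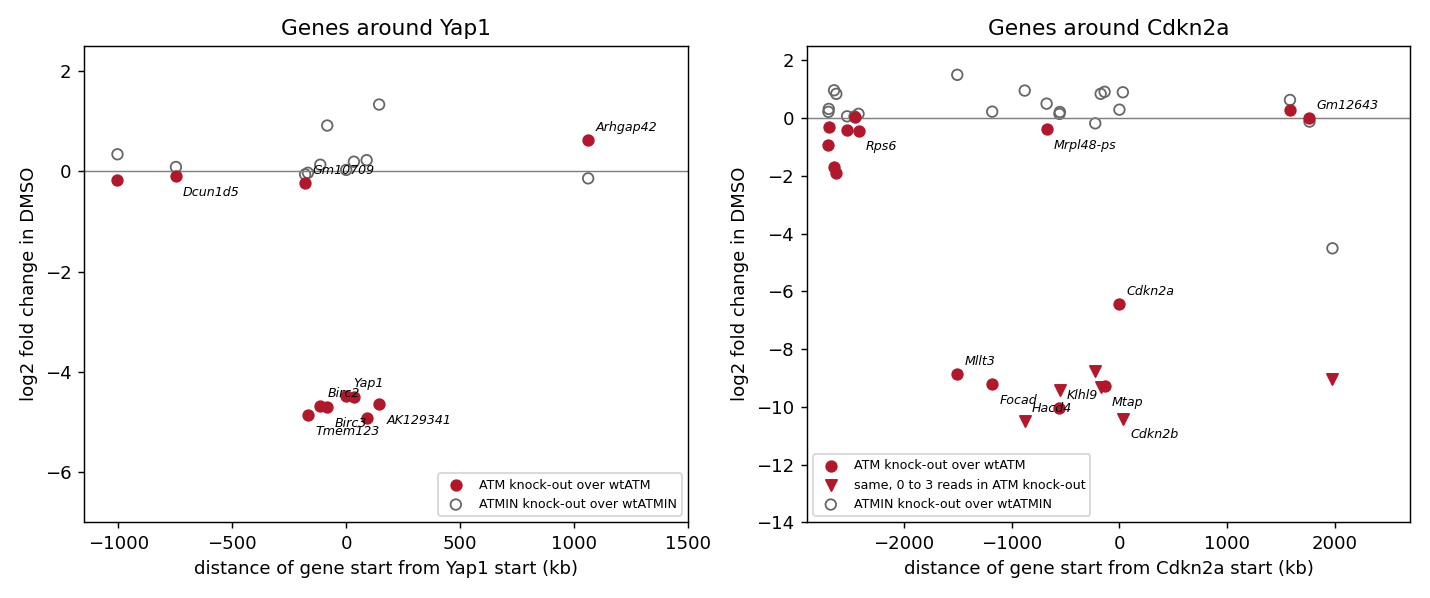
Log2 fold change in DMSO against the distance of the gene start from the start of Yap1 (left) and Cdkn2a (right), in kb, for genes whose logCPM reached 1. Red points are ATM knock-out over wtATM (triangles where the knock-out line had 0 to 3 reads, whose fitted value depends on the prior count) and open grey circles are ATMIN knock-out over wtATMIN. The 7 genes around Yap1 lie between −4.92 and −4.48 with neighbours from −0.23 to 0.63, and the genes from Mllt3 to Cdkn2b lie below −6 except Mrpl48-ps.

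Over the whole transcriptome the line difference covered most genes. Of 16657 tested genes, 5459 were higher and 5641 lower in ATM knock-out, and 1742 and 2094 of these were past 2-fold. Against a threshold of 2-fold inside the test (glmTreat), 1312 were higher and 1514 lower. All 4 samples of a line lay apart from all 4 of the other for 7345 genes (44.1%), and the lines were apart within both times for 11500 (69%). The same fit called 51.9% of genes between ATMIN knock-out and wtATMIN and 62.8% between wtATM and wtATMIN, both wild type. Of 10427 genes called in the ATM pair and tested in the ATMIN pair, the difference between the pairs was itself called for 8778, and over all 17720 genes of that fit for 66.7%. The ATM knock-out line had no read of 125 called genes, and wtATM had no read of 84.

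The largest differences were genes that 1 line used and the other did not. Higher in ATM knock-out with 0 reads in wtATM were Syndig1, a synapse differentiation gene (at least 674-fold), Hand2, a transcription factor of heart and limb (at least 261-fold), the cannabinoid receptor gene Cnr1 (at least 258-fold), Jph1 (at least 219-fold), Bhlhe22 (at least 208-fold), Hoxc11 (at least 172-fold) and Foxl2os (at least 163-fold). Lpl, lipoprotein lipase, had 1844 reads in the knock-out and 1 read in wtATM. Chst10, Uty, Igfbp3 and Pcdh20 likewise had 1 or 2 reads in wtATM. Crabp1, a retinoic acid binding protein, was the most abundant of this set, with 595, 712, 910.2 and 866 CPM in ATM knock-out, against 0.31, 0.501, 0.952 and 0.837 CPM in wtATM (10.16 ± 0.12, adjusted p = 4.07e-15). It was at 5.47 to 14.9 CPM in ATMIN knock-out and 1.43 to 21.7 CPM in wtATMIN. Slc14a1, a urea transporter, had 95.4, 83.2, 98.3 and 92.5 CPM in ATM knock-out, against 0.0776, 0.251, 0 and 0.112 CPM in wtATM (9.66 ± 0.20). Lower, with 0 reads in ATM knock-out, were Plcl2 (at least 370-fold), Nrg2, a ligand of ERBB receptors (at least 320-fold), Sim2 (at least 315-fold), Alkal1 (at least 223-fold), Chrnd (at least 182-fold), Gstk1 (at least 178-fold), Trim29 (at least 168-fold) and Tslrn1 (at least 164-fold). Dlx3, Bnc1, Gbe1 and Myf5 had 1 or 2 reads in ATM knock-out against 1396 to 2263 in wtATM.

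Genes that carry positional identity in the embryo were among these. Fibroblasts keep the Hox code of the body site they come from, with the 5′ members of each cluster marking distal and posterior sites. Of 40 listed Hox genes 32 were tested, and 19 of these were higher in ATM knock-out and 6 lower (median 0.681), against 32.8% and 33.9% of all genes. Hoxd13, a marker of the distal limb and the genital tubercle, had 30.9, 34.9, 43.5 and 43.5 CPM in ATM knock-out, against 0.0776, 0.0627, 0.0529 and 0 CPM in wtATM. That is 2525 reads against 3, a ratio of 836 (exact 95% interval 286 to 4053). Hoxd11 had 684 reads against 1, Hoxd10 was at 5.92 ± 0.22 and Hoxc10 had 511 reads against 3, while the 3′ neighbours Hoxd9 (−0.47) and Hoxd8 (−0.55) were lower. In the HoxC cluster, 6 neighbouring genes from Hoxc11 to Hoxc4 were all higher past 2-fold, and Hotair, the antisense RNA of that cluster, had 78 reads against 0. In the HoxA cluster, Hoxa2 (−1.57) was lower, and Hoxa9 (1.89) and Hoxa10 (1.27) were higher. Hox genes nearly absent from wtATM, such as Hoxd13, were tested only through their reads in ATM knock-out, which fixed their direction. Without the filter on low counts, the median over 36 Hox genes was 0.689.

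Of 49 other positional transcription factors listed, 37 were tested. They were called in 36 of 37 cases, 24 higher and 12 lower, against 32.8% and 33.9% of all genes. Tbx20, of the heart field, had 30.6, 28.2, 41 and 40.8 CPM in ATM knock-out, against 0.233, 0.376, 0.212 and 0.279 CPM in wtATM (6.98 ± 0.16, adjusted p = 3.1e-13). Tbx5, which marks the forelimb and heart, had 32.8, 30.3, 31 and 33.8 CPM in ATM knock-out, against 0, 0.439, 0.0529 and 0.0558 CPM in wtATM (7.79 ± 0.29), and Tbx1, of the pharyngeal arches, was at 8.83 ± 0.25. Gata6 had 926 reads against 1, Nkx2-5, of the heart, 238 against 0, and Shox2 was at 2.92 ± 0.08. The opposite pattern was held by Foxd1, a gene of kidney stroma, with 0.0599, 0.128, 0.0572 and 0.124 CPM in ATM knock-out, against 23.2, 23.9, 18.5 and 18.6 CPM in wtATM (−7.74 ± 0.19), and by Sim2 and Pax9 (−3.17 ± 0.15). Past 2-fold, 20 of the 37 were higher and 8 lower. Members nearly absent from 1 line, such as Nkx2-5 and Foxd1, were tested only through their reads in the other, which fixed their direction. Without the filter on low counts, the median of these factors was 0.973 over 45 genes, against 1.19 with it.

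Keratinocyte genes were read in wtATM and almost absent from ATM knock-out. Krt14, the type I keratin of basal epidermis, had 0.299, 0.0639, 0.172 and 0.124 CPM in ATM knock-out, against 77.3, 81.9, 218 and 211 CPM in wtATM, which is 11 reads against 10202 (−9.72 ± 0.17, adjusted p = 4.42e-14). Its partner Krt5 had 2 reads against 930. Krt6a had 0.479, 0.576, 0.401 and 0.185 CPM in ATM knock-out, against 139.9, 134, 384 and 386 CPM in wtATM (−9.27 ± 0.24) and Krt6b was at −9.66 ± 0.16, though near-identical keratin genes can share reads. The summed level of the 18 listed epithelial and keratin markers was 4.75 to 7.16 CPM in ATM knock-out and 99.2 to 239 CPM in wtATM. Of the 6 tested, 5 were lower and Krt19, of simple epithelia, was higher (4.94 ± 0.32), against 33.9% lower and 32.8% higher of all genes. Krt14 and Krt5, nearly absent from ATM knock-out, were tested only through their reads in wtATM, which fixed their direction. Epcam, Cdh1, Esrp1 and Grhl2 had 0 to 9 reads in either line. In such bulk libraries, fewer cells of a type and less of its RNA per cell cannot be told apart. ATMIN knock-out and wtATMIN had Krt14 at 0 to 0.186 CPM and 0.175 to 0.422 CPM. What part the cells or transcripts behind these markers have in other differences between the lines was not tested.

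Neighbouring genes of the cornified envelope on chromosome 3 shared this pattern. Ivl, which encodes involucrin, had 0 reads in ATM knock-out against 389 in wtATM and was at least 127-fold lower. Sprr1b had 1 read against 1103 and Sprr1a 3 reads against 444, for small proline-rich proteins that are crosslinked into the envelope, and Sprr2k had 1 read against 969. The promoter windows of 3 of them are shown because they share a layout, which was seen after the genes were known to differ. Capitals mark TATAAA (the TATA box) and TGANTCA (the motif of AP-1 factors), searched on both strands, in RefSeq windows of GRCm38.p6 on the minus strand: Sprr1b at chr3:92438730-92439029, Sprr1a at chr3:92485832-92486131 and Ivl at chr3:92573686-92573985.
Sprr1b: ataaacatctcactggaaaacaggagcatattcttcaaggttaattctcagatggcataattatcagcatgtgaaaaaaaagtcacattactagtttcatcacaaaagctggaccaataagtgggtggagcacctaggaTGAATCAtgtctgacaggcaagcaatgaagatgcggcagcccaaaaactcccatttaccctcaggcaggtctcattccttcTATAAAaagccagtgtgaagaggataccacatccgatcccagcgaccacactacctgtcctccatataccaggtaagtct
Sprr1a: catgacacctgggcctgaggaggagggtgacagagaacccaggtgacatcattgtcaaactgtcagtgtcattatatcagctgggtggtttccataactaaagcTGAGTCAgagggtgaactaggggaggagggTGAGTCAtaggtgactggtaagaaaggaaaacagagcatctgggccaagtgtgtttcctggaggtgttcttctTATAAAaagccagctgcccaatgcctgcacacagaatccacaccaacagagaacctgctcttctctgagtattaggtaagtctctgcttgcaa
Ivl: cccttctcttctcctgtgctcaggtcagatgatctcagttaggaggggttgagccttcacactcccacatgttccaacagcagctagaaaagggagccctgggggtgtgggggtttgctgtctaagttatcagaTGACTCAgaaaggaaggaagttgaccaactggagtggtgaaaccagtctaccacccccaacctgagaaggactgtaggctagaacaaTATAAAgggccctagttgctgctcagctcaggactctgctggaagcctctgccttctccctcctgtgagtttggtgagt
In each, TGANTCA stands upstream of a TATAAA that lies shortly before the start. Both motifs stood together in 507 of 32851 RefSeq mouse promoters (1.54%). Over tested genes matched to a promoter, TGANTCA was held by 4.22% of those called higher in ATM knock-out, 6.45% of those called lower and 5.22% of all, and TATAAA by 6.63%, 7.19% and 6.98%. Among genes past 2-fold, TGANTCA was held by 5.92% of the higher and 9.30% of the lower. A match is a string of letters and not a measured binding site. On the list of immediate-early and AP-1 genes, 10 of 24 were higher and 10 lower, against 32.8% and 33.9% of all genes. Jun, of AP-1, was at 1.14 ± 0.06 and Klf4, which is not an AP-1 factor, at −2.39 ± 0.29.

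Myogenic genes had the same direction. Myf5, which commits cells to skeletal muscle, had 0.0599, 0, 0 and 0 CPM in ATM knock-out, against 24.5, 25.4, 18.9 and 17.7 CPM in wtATM. Cdh15, which encodes M-cadherin, had 0, 0.128, 0 and 0.124 CPM in ATM knock-out, against 27.7, 39.4, 10.2 and 8.98 CPM in wtATM (−8.28 ± 0.35). Myod1, the master regulator of muscle, had 0 reads in ATM knock-out and 66 in wtATM, and was at least 24.2-fold lower. Tnnt2, cardiac troponin T, had 3.47, 3.77, 2.29 and 2.35 CPM in ATM knock-out, against 45.9, 42.9, 52.4 and 42.6 CPM in wtATM (−3.96 ± 0.14). Of 17 listed muscle markers 7 were tested, 6 lower and none higher (33.9% and 32.8% of all genes). The whole list summed to 6.40 to 12.1 CPM in ATM knock-out and 84.2 to 117 CPM in wtATM. Neural markers leaned the other way: of 22 listed 10 were tested, 8 higher and 1 lower. Among them were Sox2 at 2.21 ± 0.09, Tubb3 at 2.15 ± 0.13 and Map2 with 468 reads against 1. Of 10 listed adipocyte markers 4 were tested, and 3 were higher: Lpl, Cebpa (369 reads against 2) and Pparg (217 against 2). Adipoq, Lep and Plin1 had 0 to 2 reads in both lines. Without the filter on low counts, the adipocyte median was 0.095 over 9 genes, against 6.72 with it. Markers nearly absent from 1 line were tested only through their reads in the other, which fixed their direction. Endothelial genes were scarce in both lines, at 1.54 to 2.99 CPM summed in ATM knock-out and 3.70 to 5.74 CPM in wtATM.

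**Figure D3:**
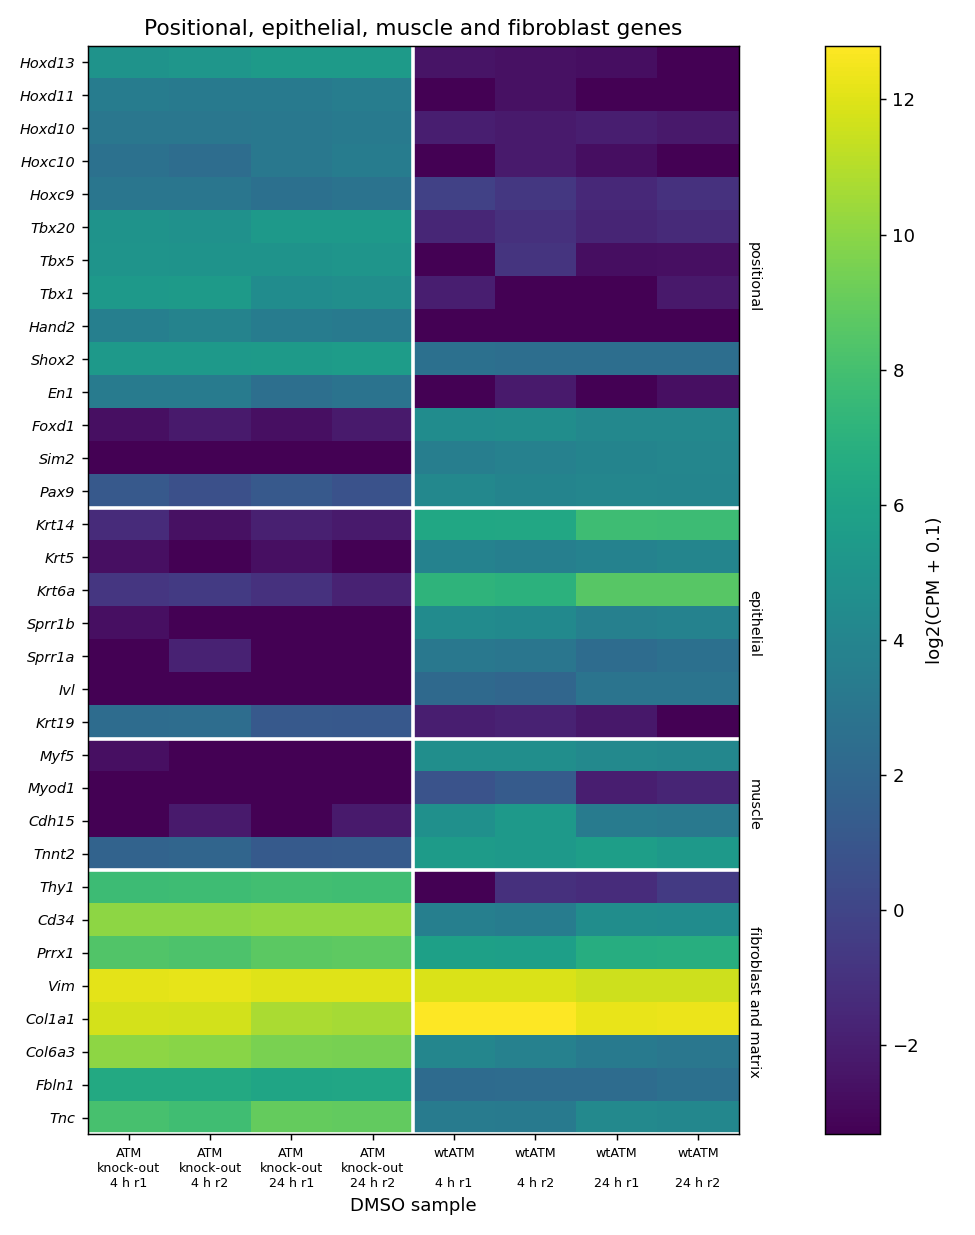
Log2(CPM + 0.1) of 33 genes (rows) in the 8 DMSO samples, the 4 ATM knock-out samples on the left and the 4 wtATM samples on the right of the white line. Hox and T-box genes are bright on the left, and Foxd1, Sim2, keratin, envelope and muscle genes are bright on the right, while Vim and Col1a1 are bright in all samples.

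Surface and matrix genes of fibroblasts divided the lines as well. Thy1, which encodes the surface glycoprotein CD90, had 212, 219, 242 and 232 CPM in ATM knock-out, against 0, 0.376, 0.318 and 0.558 CPM in wtATM (9.38 ± 0.17, adjusted p = 2.2e-12). Cd34, a sialomucin of mesenchymal progenitors and fibroblasts, had 1072, 1057, 1167 and 1167 CPM in ATM knock-out, against 12.2, 10.7, 23.4 and 23.1 CPM in wtATM (6.06 ± 0.21). Prrx1, a transcription factor of limb mesenchyme, had 341, 307, 417 and 448 CPM in ATM knock-out, against 58.2, 55.4, 105 and 112 CPM in wtATM (2.25 ± 0.10). Of the 20 listed fibroblast genes, 12 were higher and 6 lower in ATM knock-out, against 32.8% and 33.9% of all genes.

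All 25 tested collagens were called, 19 of them lower in ATM knock-out (median −1.191). Of all genes, 66.6% were called and 33.9% were lower. Col1a1 had 3527, 3367, 1706 and 1553 CPM in ATM knock-out, against 7098, 6988, 4985 and 5034 CPM in wtATM (−1.33 ± 0.12), and Col1a2 was at −1.08 ± 0.06 and Col3a1 at −1.19 ± 0.24. Lower by more were Col18a1, which encodes the precursor of endostatin (−4.81 ± 0.16), Col5a3 (−4.60 ± 0.20), and Col7a1 (−3.66) and Col17a1 (−6.49), which anchor epidermis to dermis. Col6a3, a chain of type VI collagen, went against the list with 1069, 966, 758 and 731 CPM in ATM knock-out, against 16.8, 13.5, 9.31 and 8.14 CPM in wtATM (6.24 ± 0.10, adjusted p = 1.93e-13). The other chains of that trimer moved far less, Col6a1 at −0.48 and Col6a2 at 0.73. The basement membrane pair Col4a1 (2.54 ± 0.37) and Col4a2 (2.31 ± 0.39), which share a promoter region, rose together. Summed over the list, collagen reads made 8642 to 13460 CPM in ATM knock-out and 18580 to 20700 CPM in wtATM. The count of lower collagens included 3 of the 4 that lie on chromosome 10, and 16 of 21 were lower without that chromosome.

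Matrix glycoproteins were more often higher, 20 of 36 against 9 lower (median 0.5). Fbn2, an embryonic fibrillin, had 247, 219, 361 and 375 CPM in ATM knock-out, against 0.543, 0.564, 0.635 and 0.892 CPM in wtATM (8.83 ± 0.10). Tnc, which encodes tenascin C, had 279.6, 234, 499.6 and 487 CPM in ATM knock-out, against 10.5, 9.4, 19.4 and 17.6 CPM in wtATM (4.72 ± 0.08), and Fbln1 was at 3.91 ± 0.09 and Postn at 5.33 ± 0.30. Ogn was lower (−3.43 ± 0.09). Among proteases and inhibitors, 10 of 26 were higher and 8 lower. Adamts9 had 43.5, 38.1, 64.8 and 59.9 CPM in ATM knock-out, against 0, 0.125, 0 and 0.223 CPM in wtATM (9.06 ± 0.24), Adamts5 was at −2.83 ± 0.10, and Plau, the urokinase, at −3.74 ± 0.12. Timp3, an inhibitor of metalloproteinases on chromosome 10, had 239.6, 201, 191 and 197 CPM in ATM knock-out, against 2083, 2054, 3036 and 2996 CPM in wtATM (−3.59 ± 0.17). Among contractile genes 8 of 22 were higher and 8 lower, with Tagln at 3.20 ± 0.07 and Cnn1 at 5.47 ± 0.29 but Mylk at −3.55 ± 0.17 and Cnn2 at −0.97 ± 0.05. In the TGF-beta and BMP list 8 of 24 were higher and 6 lower. All 3 of these lists lie near the shares over all genes (32.8% higher and 33.9% lower) or below them. The BMP antagonist Grem1 (6.67 ± 0.42) was higher, Bmp4 (−2.80 ± 0.13) and the BMP target Id2 (−2.78 ± 0.20) lower.

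In the insulin-like growth factor system, receptors and binding proteins moved in both directions. Igf2r, the receptor that clears IGF2, had 7.12, 6.14, 4.18 and 4.45 CPM in ATM knock-out, against 229, 242, 128 and 133 CPM in wtATM, a difference of −5.05 ± 0.08, adjusted p = 1.36e-14. Igfbp2 had 0, 0, 0.286 and 0.247 CPM in ATM knock-out, against 73.3, 73, 171 and 169 CPM in wtATM (−9.74 ± 0.17) and Igfbp7 was at −5.29 ± 0.14. Igfbp3 had the opposite pattern, with 26.8, 24.7, 17.6 and 18.3 CPM in ATM knock-out, against 0, 0, 0 and 0.0558 CPM in wtATM. Of 15 tested members, 7 were higher and 7 lower, against 32.8% and 33.9% of all genes. Imprinted growth genes were higher in 9 of 16 cases and lower in 4. Peg10 had 38.6, 33.2, 31.5 and 34 CPM in ATM knock-out, against 0, 0.125, 0.212 and 0.112 CPM in wtATM (8.05 ± 0.21) and its neighbour Sgce was at 6.46 ± 0.15, and Grb10, an inhibitor of insulin and IGF receptors, was at 2.22 ± 0.14.

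Proliferation genes were more often higher than lower, by small amounts. Of 47 replication genes and E2F targets, 29 were higher and 6 lower (median 0.205). Of 42 G2/M and mitosis genes, 27 were higher and 8 lower (median 0.258). Over all genes, 32.8% were higher and 33.9% lower. Orc6, of the origin recognition complex, had 86.4, 88.9, 157 and 163 CPM in ATM knock-out, against 38.2, 39.5, 58.3 and 62.2 CPM in wtATM (1.30 ± 0.06). Mcm10 was at 1.19 ± 0.06 and E2f2 at 1.99 ± 0.11, while Chaf1b (−0.97 ± 0.06) and Tyms (−0.86 ± 0.05) were lower and Pcna did not pass (0.01 ± 0.05). Among mitotic genes, Foxm1, their transcriptional activator, had 281, 269, 302 and 302 CPM in ATM knock-out, against 188, 182, 178 and 188 CPM in wtATM (0.65 ± 0.05), Ccna2 was at 0.59 ± 0.05, Nek2 at 0.91 ± 0.07 and Mki67 at 0.28 ± 0.06. Cdk1 went against them with 191, 196, 255 and 268 CPM in ATM knock-out, against 313, 302, 429 and 421 CPM in wtATM (−0.68 ± 0.05), and it lies on chromosome 10.

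Innate immune genes showed no shared direction, while class I histocompatibility genes were more often higher than lower. Of 31 tested interferon-stimulated genes, 15 were higher and 14 lower (32.8% and 33.9% of all genes), and 8 and 9 of these were past 2-fold. Trim25, a ubiquitin ligase that activates RIG-I, had 0.18, 0, 0.172 and 0.185 CPM in ATM knock-out, against 52.9, 57.3, 58.3 and 57.1 CPM in wtATM (−8.62 ± 0.18, adjusted p = 2e-13). Ddx58, which encodes RIG-I, was at −1.47 ± 0.11, Irf7 at −2.93 ± 0.26 and the GTPase gene Gbp2 at −2.89 ± 0.14. Ifit1 (2.67 ± 0.25), Ifit2 (1.86 ± 0.16), Ifi203 (3.05 ± 0.19) and Isg15 (1.39 ± 0.18) were higher. Among the sensors, Mb21d1, which encodes cGAS, was at 1.36 ± 0.10 and its partner Tmem173, which encodes STING, at 1.01 ± 0.12, while Tbk1, the kinase they signal through, was at −0.98 ± 0.06. Of 16 class I histocompatibility genes 10 were higher and 1 lower, with H2-K1 at 3.0, Tap2 at 3.37 ± 0.25 and Tapbp at −1.62 ± 0.06, and reads of near-identical class I genes may be split between them. In the NF-kB list 11 of 22 were higher and 8 lower: the chemokine genes Cxcl12 (2.48 ± 0.07) and Ccl2 (2.99 ± 0.17) were higher, Tnfaip2 (−4.77 ± 0.12) and Tnfaip3 (−1.73 ± 0.10), which encodes the NF-kB inhibitor A20, lower.

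Antioxidant genes driven by NRF2 were lower in 19 of 30 cases and higher in 5 (median −0.522), against 33.9% and 32.8% of all genes. Sod3, the extracellular superoxide dismutase, had 5.15, 4.92, 4.41 and 4.26 CPM in ATM knock-out, against 39.4, 39.9, 41.5 and 46.3 CPM in wtATM (−3.15 ± 0.10). Gstm2, a glutathione transferase, was at −1.83 ± 0.07, Taldo1, of the pentose phosphate pathway, at −1.28 ± 0.06 and Nqo1 at −1.85 ± 0.34. Gstm5 (2.51 ± 0.10) and Gsr, glutathione reductase (0.94 ± 0.05), were higher. Cholesterol synthesis genes were higher in 15 of 25 cases and lower in 5. The remaining lists were called about as often as all genes: 11 higher and 8 lower of 29 genes of the integrated stress response, 8 and 10 of 29 lysosome and autophagy genes, 9 and 9 of 31 glycolysis and hypoxia genes, and 11 and 14 of 39 nuclear genes of oxidative phosphorylation. The glycolysis and hypoxia list differed between the times: 8 were higher and 15 lower at 4 h alone (median −0.213), 19 higher and 9 lower at 24 h alone (median 0.291), and the change with time was called for 21 of 31 against 14.9% of all genes. Of the other markers, 1 of 5 tested blood genes was higher and 2 lower, and 2 of 5 cartilage and bone genes were higher and 2 lower.

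**Figure D4:**
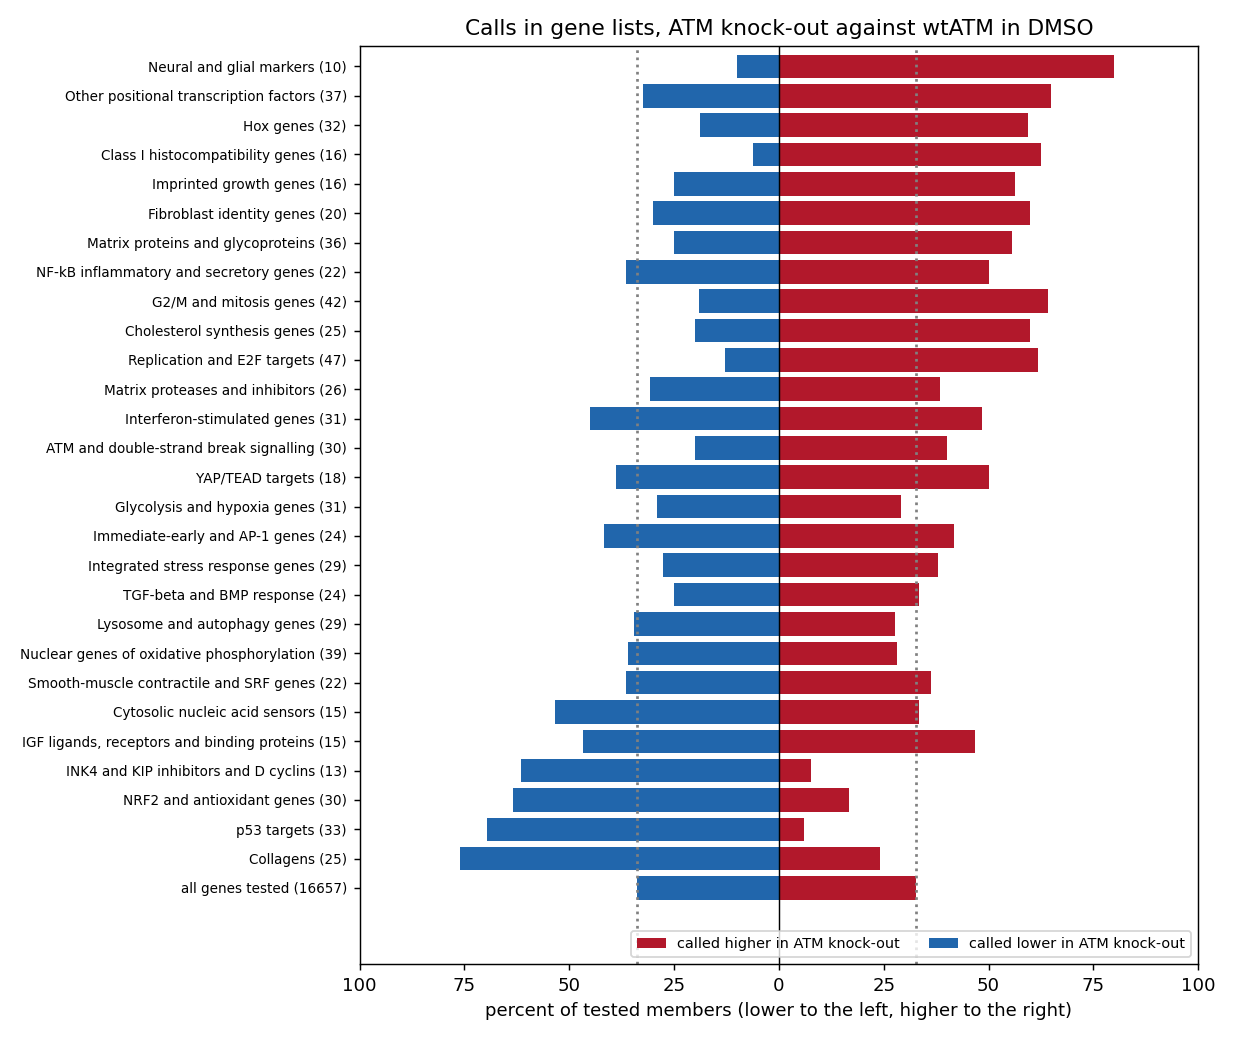
Percent of tested members called higher (red, to the right) and lower (blue, to the left) in ATM knock-out against wtATM in DMSO for each list with at least 10 tested genes, ordered by median, with the number tested in parentheses and all 16657 genes at the bottom. Dotted lines mark the shares over all genes, 32.8% and 33.9%. Collagens, p53 targets and NRF2 genes extend furthest to the left, and neural markers and other positional factors furthest to the right.

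Y-linked genes separated the lines completely. Ddx3y had 49.7, 43.7, 109 and 119.7 CPM in ATM knock-out, against 0, 0, 0.265 and 0.112 CPM in wtATM (9.54 ± 0.19), and Eif2s3y and Kdm5d were at 8.81 ± 0.19 and 9.13 ± 0.20. Xist, the RNA of the inactive X chromosome, was low in both, with 43 reads in ATM knock-out and 39 in wtATM, and did not pass.

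Whole chromosomes also differed in their median. Among genes with a logCPM of at least 1, the 631 on chromosome 10 had a median of −0.534, and 71.5% were called lower and 10.5% higher. Over all 16657 tested genes, a set without this limit on logCPM, 33.9% were called lower and 32.8% higher. The median of chromosome 10 was −0.587 at 4 h and −0.478 at 24 h. Chromosome 15 had a median of −0.303 with 56.4% lower, and chromosomes 18 (0.390, 66.2% higher) and 3 (0.355, 61.5% higher) lay on the other side. The 32 genes of the mitochondrial chromosome had a median of 0.367 (0.174 at 4 h and 0.54 at 24 h), with 56.2% called higher and none lower. In the ATMIN pair the medians of chromosomes 10, 15, 18 and 3 were 0.119, 0.198, 0.252 and 0.022. Several genes named above lie on chromosome 10, Mdm2, Apaf1, Perp, Cdk1, Cdk4, Tbk1, Tnfaip3 and Timp3 among them, and whether the chromosome's shift has a part in their differences was not tested. Runs of 5 or more neighbouring genes past 2-fold in 1 direction, a rule chosen after these values were seen, numbered 21 over 13372 genes, of which 8 were higher and 13 lower. All members differed by more than 16-fold in 2 of the runs, those around Yap1 and Cdkn2a. On chromosome 8, 84 genes between 80 and 90 Mb had a median of 1.027, against −1.040 in the ATMIN pair. Chromosome 8 as a whole had a median of 0.236 in the ATM pair and −0.683 in the ATMIN pair, the lowest plotted for the ATMIN pair. Some runs are gene families whose members share exons or sequence, such as Ugt1a on chromosome 1 and the histone clusters, where reads may be split.

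**Figure D5:**
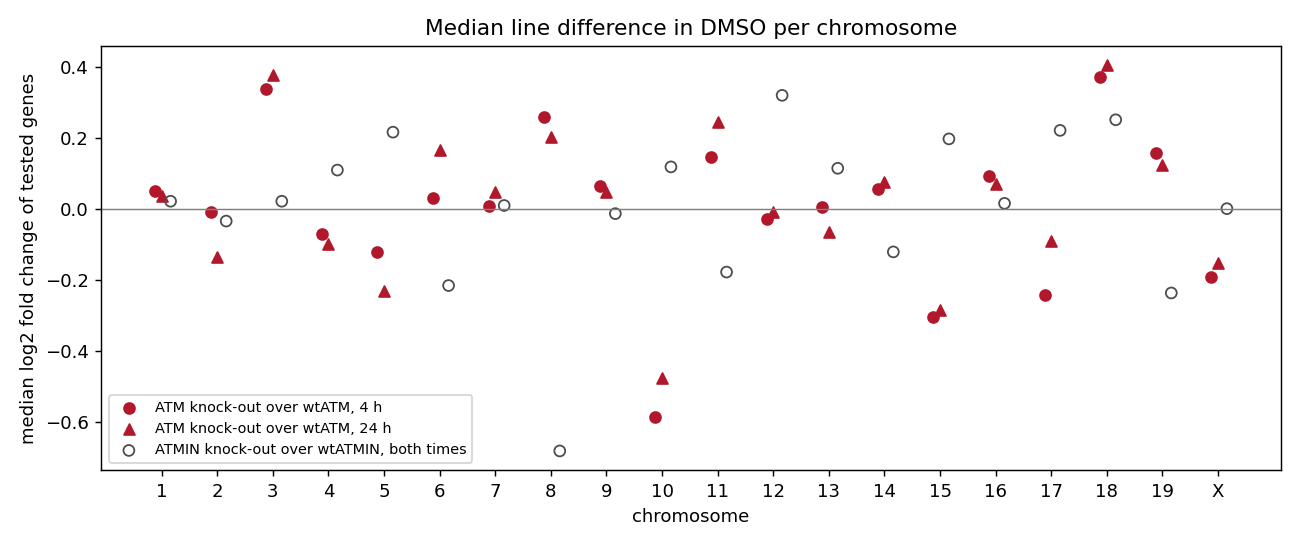
Median log2 fold change of genes with a logCPM of at least 1 on each chromosome, as ATM knock-out over wtATM at 4 h (red circles) and 24 h (red triangles) and as ATMIN knock-out over wtATMIN (open circles). Chromosome 10 lies lowest in the ATM pair at both times, at −0.587 and −0.478, and of the chromosomes plotted 3 and 18 lie highest at both. The mitochondrial chromosome, with 32 genes, is not plotted.

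Genes near Atm were called about as often as genes elsewhere. Of 111 tested genes within 5 Mb of Atm, 36 were higher and 41 lower (69.4%), and 26.1% were past 2-fold against 23% of all genes. Those with the smallest p were Crabp1, Scamp5 (5.22 ± 0.20), Pstpip1 (−4.58 ± 0.15), the small heat shock protein gene Cryab (−3.39 ± 0.09) and 6030419C18Rik (−3.22 ± 0.08). Thy1 and Npat also lie on chromosome 9.

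For most genes called at both times, the difference between the lines had the same sign at 4 h and 24 h in DMSO. In a fit with 4 groups, 8518 genes were called at both times with the same sign and 174 with opposite signs. A further 1608 were called at 4 h only and 2275 at 24 h only. The change of the line difference with time was called for 2481 genes (14.9%), 1313 higher and 1168 lower, or 970 higher and 1538 lower when libraries were scaled by their totals alone. Of these, 1793 kept 1 sign at both times. Acta2, smooth muscle actin, had 171, 158, 33 and 36.6 CPM in ATM knock-out, against 198, 196, 632 and 623 CPM in wtATM. Acta2 was thus close at 4 h (−0.26) and far apart at 24 h (−4.17), where wtATM had gained and ATM knock-out had lost reads. Dlk1, an inhibitor of adipogenesis, had 17.7, 22.8, 0.229 and 0.185 CPM in ATM knock-out, against 0, 0.125, 0.159 and 0.112 CPM in wtATM, so that the lines differed at 4 h and met at the floor at 24 h. Aire, best known from thymic epithelium, had 0.479, 0, 0.229 and 0.494 CPM in ATM knock-out, against 55.8, 41.5, 0.37 and 0.335 CPM in wtATM, a difference found at 4 h only. Hist2h3c2, a histone H3 gene, had 6.29, 7.29, 0 and 0.0618 CPM in ATM knock-out, against 12.1, 9.4, 3.65 and 4.07 CPM in wtATM. Serpinb5, a serpin of epithelial cells, had 0.0599, 0.256, 0 and 0 CPM in ATM knock-out, against 6.9, 6.71, 36.4 and 34.8 CPM in wtATM, and Sh3tc2 had 0.299, 0.128, 0 and 0 CPM in ATM knock-out, against 16.1, 18.6, 42.6 and 44.5 CPM in wtATM. Mgarp had 8.38, 9.02, 6.35 and 7.85 CPM in ATM knock-out, against 2.95, 1.63, 0.159 and 0 CPM in wtATM, and Nkx3-2, Lyz2, Mllt3 and Uchl1os are the other genes with the largest changes, each with at most 0.494 CPM in every sample of 1 line.

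The authors' own comparisons of these samples had the same direction. In the authors' deposited table for 4 h, 7960 of 15998 genes had an adjusted p under 0.05, and 7943 of them were also called at 4 h here, all with the same sign. In the authors' deposited table for 24 h, 9214 of 15842 genes passed, and 9146 of them were called at 24 h here, all with the same sign.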

How the data were processed

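Raw read counts per Ensembl gene were used as the authors deposited them, for 39017 genes in 32 bulk RNA libraries (9321329 to 21020662 reads in genes). The submitters' processing notes name Bowtie2 2.4.0, TopHat2 2.0.13, DESeq2 1.6.3 and the build mm10 without roles. The counting tool, the strand setting and the annotation release are not given in the sources used here, so reads of overlapping and antisense genes cannot be told apart. The authors' deposited comparison tables hold log2 fold changes, shrunken per the file headers, with the authors' adjusted p-values, and were used only where named. Their 120 per-sample columns and 60 columns of group means were left out. For 14629 genes the symbol is the authors', and for 23254 it is GENCODE's.

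The 8 DMSO samples of the ATM knock-out and wtATM lines were fitted with edgeR 4.0.16 in R 4.3.3 (filterByExpr on the groups with a minimum count of 10, TMM, robust quasi-likelihood fit, line plus time). P-values were adjusted by Benjamini-Hochberg over all genes tested, with a call at 0.05. The change with time came from a fit with 4 groups, and the comparison with the ATMIN pair from the 16 DMSO samples. The ATMIN pair and the pair of wild types, which shares the wtATM samples, were fitted as the first. On simulated counts for the line difference (16158 genes) the fit recovered 94% of genes changed by 0.5 on the log2 scale and 100% of those changed by 1 or 2, and called 0.0752% of unchanged genes. The simulated spread was lower than that of the line fit (biological coefficient of variation 0.0915). Only a few well-read genes were changed, and no time effect was set. These rates therefore need not hold for the data. Same-numbered samples deviated together at correlations of 0.139 and −0.087 between lines, so no pairing was assumed.

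The members and the 35 gene lists were chosen with earlier results of these data known. Lists are described by counts and medians, without a test. Genes named by rule were a fixed set of the ATM and p53 pathway, the 15 largest and 15 smallest called fold changes with a logCPM of at least 1, up to 4 members of each list by p, the 5 largest changes with time in each direction and 5 genes within 5 Mb of Atm. Some genes that these rules name are not reported here. Other named genes, the blocks on chromosomes 4 and 9 and the view of chromosome 10 were chosen after their values were seen. Where a line had 0 reads of a gene, the fold is a bound against 3 counts over its 4 libraries. Intervals of ratios are exact 95% counting intervals and, like this floor, cover counting error only, since reads without molecular identifiers are not independent molecules. Alternatives were RLE and library-size scaling, no filter, DESeq2 1.42.0, a replicate block, all 32 samples, glmTreat, single times and each library left out.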

Additional observations from a re-analysis of the deposited data

Results flagged for a closer look

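The change of the line difference with time, called for 2481 genes by the test of the change itself, is given here for 11 of them. On the log2 scale, as the difference at 24 h minus that at 4 h, it was −7.45 for Dlk1, −6.8 for Serpinb5, −6.21 for Sh3tc2, −6.04 for Hist2h3c2 and −5.96 for Uchl1os, and 4.36 for Mgarp, 4.83 for Mllt3, 5.63 for Lyz2, 6.0 for Nkx3-2 and 7.59 for Aire. For genes with no reads in a group these fitted values depend on the prior count and are no measure of size. Acta2, with −3.91, was abundant in every sample, at a log2 fold change of −0.26 at 4 h and −4.17 at 24 h.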

How the results depend on the processing

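The number of genes called between the lines stayed within 1.5 times of 11100 under every alternative but the test against a 2-fold threshold (glmTreat), which called 2826. It ranged from 10300 to 12273 otherwise, and from 10528 to 11044 when 1 library was left out. With a replicate block, 10785 genes were called, 10759 of them shared with the fit without it, and 10384 with the block within each time. The change with time was called for 2382 genes with the block and 1687 to 2957 with 1 library left out, the comparison with the ATMIN pair for 11815 and 11468 to 11856, the ATMIN pair for 8167 and 7729 to 8762, and the pair of wild types for 10152 and 9948 to 10634. Scaling by library totals alone turned the split of the change with time to 970 higher and 1538 lower, against 1313 and 1168, moved the ATMIN pair to 3564 higher and 5176 lower, and moved the pair of wild types to 4331 higher and 6309 lower with a median shift of −0.12 on the log2 scale. Npat lost its call under the block (adjusted p = 0.0533, edgeR). Of 4608 results for 256 named genes under alternatives, 4560 kept their direction and side of the threshold. The direction of Aire turned at 24 h alone (0.01461) and that of Ccnd1 at 4 h alone (−0.1885), and the cause was not tested. Of 630 list results under alternatives, which were added after seeing the data, the majority direction turned in 5 and the median changed sign in 23. Acta2 was at −2.16 in the additive fit (adjusted p = 0.11, edgeR) and was called at 24 h alone (−4.17, adjusted p = 1.09e-32). Depth limits genes with few reads in 1 line to a bound.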
